A study of Drosophila melanogaster with 40 samples.

Results

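The cytosolic ribosomal proteins of Drosophila are the protein part of the ribosomes that translate nuclear-encoded mRNAs. Members were the loci whose gene symbol, mapped from the RefSeq accessions in the tables, began with RpL, RpLP or RpS and a digit and whose mean over a time course was at least 0.9 FPKM (sequenced fragments scaled by transcript length and by library size). Of 92 such genes, each with a locus entry of its own, 86 passed at 25°C, among 7531 loci that passed of 15863 listed. The entries of RpL12 and RpL39 are listed at the same interval (2R, 19947901 to 19949954). At 28°C 85 passed, among 7363 of 15864. RpS19b passed only at 25°C. In all 20 libraries of a course, 86 members at 25°C and 82 at 28°C were at or above 0.9 FPKM.

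RNA was sequenced from S2 cells, an embryonic Drosophila line with properties of blood cells, at 3-h intervals from CT24 to CT81, where CT is circadian time in h. The study asked which transcripts cycle with a circadian period in cells that lack several known clock genes, such as Clk, per and tim. Per the study, the clock genes cwo, cyc, Pdp1 and vri were expressed and not rhythmic. There were 20 libraries at 25°C and 20 at 28°C, 1 for each time point. Without replicates at a time point, a p-value measures the scatter of the 20 libraries about a fitted line or cosine and treats these libraries as independent. The methods describe lysis of the cells in triplicate, and whether a library pools such samples is not given in the sources used here.

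The cells sampled at 25°C had at least a week of daily temperature cycles, a last change of medium at time 0 and plating in multi-well plates, and were then kept at 25°C. They gave polyA-selected RNA. The cells sampled at 28°C were grown at 28°C, had 2 days of temperature cycles and then a day at 28°C before the first sample, and their RNA was depleted of rRNA. In both courses the medium was not described as being changed during sampling, and no group of another genotype or treatment was part of the data. Because temperature, entrainment, RNA fraction and depth all differ, their parts in any difference between the courses cannot be told apart, and values of the 2 courses are given side by side without a test.

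A ribosome has a small subunit, which reads the mRNA, and a large subunit, which joins amino acids. Each holds its proteins in about equal numbers per particle, and cells make the ribosomal proteins in balance with one another and with rRNA. In flies, the loss of one gene copy of many ribosomal proteins gives the Minute phenotype of slow growth and short bristles. Ribosomal protein genes give short, very abundant mRNAs whose translation depends on the TOR kinase and nutrients. Several of them have a second gene copy, and some of those copies are known from the germ line.

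Reads per locus were not part of the values used. The methods give mapped reads per library only as a mean and a minimum at 25°C and, far lower, as bounds at 28°C. The depth of each library could therefore only be estimated, relative to the others. The estimate came from the steps of 1 read in loci with few reads. It ran from 0.566 (CT39) to 1.55 (CT48) times the median at 25°C and from 0.572 (CT60) to 1.41 (CT36) at 28°C. The steps also carry the scaling of the values, and at 28°C the estimates spread wider than the bounds in the methods. They are thus a guide to depth and not read counts. A read counted for 0.0283 to 0.0773 FPKM in the median locus of this kind at 25°C and for 1.20 to 2.97 FPKM at 28°C, so that low members at 28°C rest on single reads. Libraries with an estimate below 0.7 times the median were CT39 at 25°C and CT24, CT27, CT48 and CT60 at 28°C. The 4 at 28°C also had the fewest loci above 0 there (4158 to 4761). Elsewhere the 2 measures differed, as CT36 had 5809 loci above 0 and CT75 had 7183. Of 8 genes listed as markers of S2 cells or blood cells, 6 passed 0.9 FPKM at 25°C and 7 at 28°C, among them the collagen genes Col4a1 and vkg and the blood cell factor srp. The blood cell marker Hml had a mean of 0.0214 FPKM at 25°C and of 10.04 at 28°C, where no library was at 0, and NimC1 had means of 0.0133 and 0.788 FPKM. The germ line markers vas, bam and tj had means between 0 and 0.149 FPKM in both courses, aub had 0.882 FPKM at 25°C and 1.35 at 28°C, and piwi had 4.08 and 0.490 FPKM.

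Ribosomal protein transcripts were the most abundant group of polyA RNAs at 25°C. The median of the 86 member means was 5568 FPKM, with quartiles of 4082 and 7300 FPKM, against a median of 23.9 FPKM over the other expressed loci. Of the 132 loci with a mean over 1000 FPKM, 79 were members, and members held 47 of the 50 highest means and 77 of the 100 highest. Together they made up 44.0% of the summed FPKM at CT24, 52.2% at CT60 and 50.4% at CT81. At 28°C the median was 2178 FPKM, 73 of 132 loci over 1000 FPKM were members, and members held 22 of the 50 highest means. Their share of the summed FPKM was 19.4% at CT24 and 32.4% at CT81.

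The highest mean at 25°C was that of RpL41, the smallest ribosomal protein, with 28714 FPKM in its lowest library (CT51), a median of 32843 and 42409 in its highest (CT60). RpL29 of the large subunit followed with 9979, 12649 and 16217 FPKM as lowest, median and highest. RpS7 and RpL23 had means of 12141 and 10468 FPKM. The libraries of RpL41 did not overlap with those of any of these members. Among RpL29, RpS7 and RpL23 the ranges overlapped, so that their order holds for the means only. At 28°C RpL41 had a mean of 8073 FPKM, with 5190 FPKM at CT36, a median of 7968 and 10784 at CT78. RpL27A, RpS26 and RpL13A had means of 5611, 4911 and 4772 FPKM. Values of FPKM are scaled by transcript length, and those of very short transcripts such as RpL41 depend strongly on how fragments of that length were modelled.

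**Figure D1:**
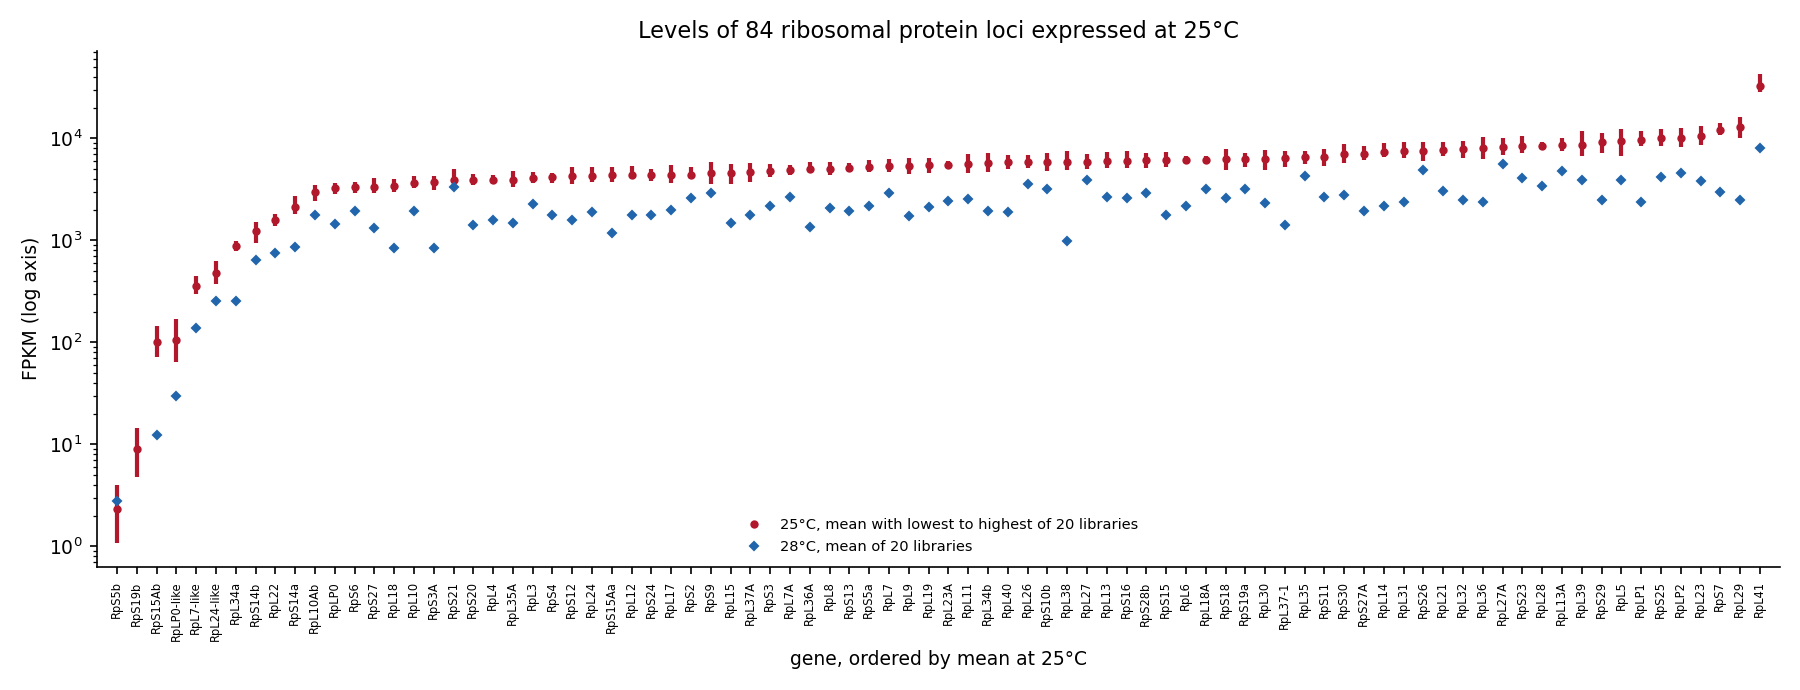
Mean FPKM of 84 ribosomal protein loci at 25°C with the lowest and highest of 20 libraries as bars (red), and the mean at 28°C (blue diamonds), on a log axis, genes ordered by their mean at 25°C. From RpS14b upward the loci sat between 1244 and 12835 FPKM at 25°C apart from RpL41 at 32716, while 7 loci lay below 1000 FPKM.

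The 7 members under 1000 FPKM at 25°C were second copies of duplicated genes or members with a name ending in -like. RpS5b had a mean of 2.32 FPKM, RpS19b of 8.93, RpS15Ab of 100 and RpL34a of 878 FPKM. RpLP0-like, RpL7-like and RpL24-like had means of 106, 359 and 476 FPKM. The yeast relatives of these 3 proteins (Mrt4, Rlp7 and Rlp24) are assembly factors of the large subunit and not part of the finished ribosome. The 6 genes that did not pass were RpS10a at 0.494 FPKM, RpL37-2 at 0.390, RpS28-like at 0.102, RpL22-like at 0.0480, and RpL10Aa and RpS28a, both listed at 0 in all 20 libraries. RpL22-like is known from the testis. At 28°C RpL22-like, RpL37-2, RpL10Aa, RpS28a and RpS28-like were listed at 0 in 20 libraries, and RpS10a and RpS19b in 19.

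The order of levels was similar over time and between the courses. Spearman's rho between CT24 and CT81, as a description across members, was 0.95 at 25°C and 0.77 at 28°C. Across the 85 members of both courses, rho between the mean levels was 0.79. The mean at 28°C divided by the mean at 25°C had a median of 0.411 and quartiles of 0.323 and 0.504. The smallest ratios were 0.122 for RpS15Ab and 0.169 for RpL38, and the largest were 0.865 for RpS21 and 1.21 for RpS5b, whose mean at 28°C came from 4 libraries above 0, 1 of them (CT60) at 37.2 FPKM. A ratio of FPKM between tables that were scaled separately is not a fold change of RNA per cell.

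**Figure D2:**
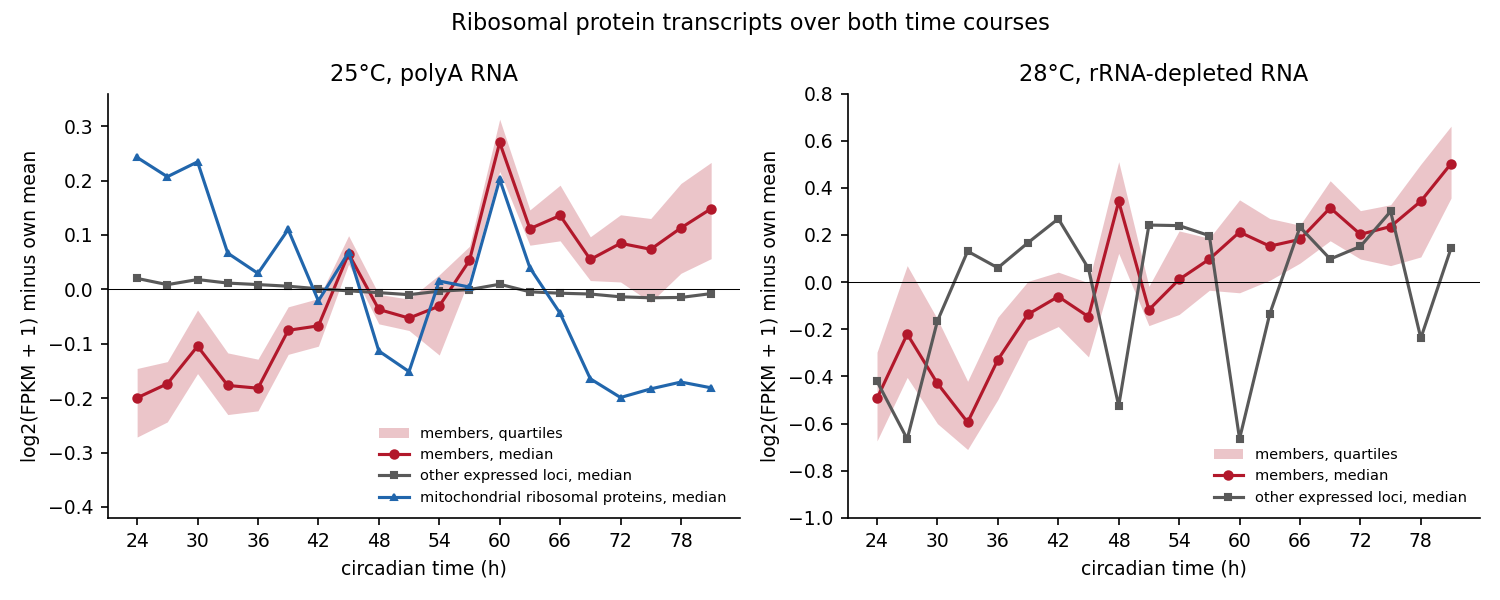
Median of log2(FPKM + 1) minus each locus's own mean over the members (red, with the range between the quartiles of the members shaded), over the other expressed loci (grey) and, at 25°C, over 72 mitochondrial ribosomal proteins (blue), against circadian time. The member median rose from -0.20 at CT24 to 0.15 at CT81 at 25°C with a high point of 0.27 at CT60, and from -0.49 to 0.50 at 28°C.

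At 25°C most ribosomal protein transcripts rose over the time course. The median log2 change per 24 h was 0.15 over the members (0.16 after scaling by median of ratios) and -0.01 over all expressed loci. Of 86 members 68 rose and 6 fell (limma on log2(FPKM + 1), Benjamini-Hochberg adjusted over all expressed loci), where 32.4% of the expressed loci rose and 35.6% fell. The members move together, so these counts are not counts of independent events. Among the loci with a mean over 1000 FPKM, 66 of 79 members rose and 2 fell, against 22 of 53 other loci that rose and 24 that fell. In the large subunit 38 of 51 members rose and 4 fell, with a median change of 0.14, and in the small subunit 30 of 35 rose and 2 fell, with a median of 0.16. The 72 mitochondrial ribosomal proteins, which serve the separate ribosomes of mitochondria, had a median change of -0.16, and 3 of them rose and 51 fell. In bulk RNA, a larger share of a transcript and less of all other RNA cannot be told apart.

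RpL5, which binds 5S rRNA together with RpL11, had the largest rise at 25°C (chromosome 2L, 22425011 to 22429616, dm3). Its lowest library was CT24 with 6660 FPKM, its median was 9185 and its highest was CT81 with 12316 FPKM. It changed by 0.33 ± 0.0247 (SE) on the log2 scale per 24 h, or 1.26-fold (adjusted p = 2.45e-10 with limma). RpL36 rose 1.23-fold per 24 h, from 6231 FPKM at CT24, its lowest, to 10393 at CT81, its highest. RpS14b, RpS9 and RpS26, all of the small subunit, rose by 0.29, 0.28 and 0.27 on the log2 scale per 24 h. RpS14b, RpS26, RpL5 and RpL36 were highest at CT81, whereas 72 members were highest at CT60. CT24 was the lowest library of 40 members, and 70 members had their lowest library before CT42.

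The 6 members that fell at 25°C were the assembly factor relative RpLP0-like, the second copies RpS15Ab, RpS19b and RpL34a, and the major transcripts RpLP0 and RpL18. RpLP0-like (2R, 5983985 to 5987095) had 170 FPKM at CT24, its highest library, a median of 103 and 64.3 FPKM at CT81, its lowest. It changed by -0.56 ± 0.0311 (SE) on the log2 scale per 24 h (adjusted p = 3.31e-12 with limma). RpS15Ab (2R, 6709181 to 6709904) changed by -0.38 per 24 h, with 143 FPKM at CT30, its highest, and 71.4 at CT75, its lowest. RpS19b changed by -0.34 per 24 h, with 14.5 FPKM at CT24 and 4.79 at CT66 as its extremes. These 3 were high in the early libraries and low in the late ones.

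The falls of the more abundant members were small. RpLP0 (3L, 22068967 to 22070587), the core of the stalk of the large subunit, had 2855 FPKM in its lowest library (CT75), a median of 3326 and 3634 in its highest (CT60). Its change was -0.10 ± 0.0233 (SE) on the log2 scale per 24 h (adjusted p = 0.000591 with limma). RpL18 changed by -0.08 (adjusted p = 0.0183 with limma) and RpL34a by -0.07 (adjusted p = 0.0213 with limma), and both had their highest library at CT60. The call of RpL34a was lost without CT24, CT30 or CT75, with adjusted p from 0.0525 to 0.0598 in limma. A further 12 members passed in neither direction, among them RpL41 (0.09 per 24 h, adjusted p = 0.0542 with limma), RpL7-like (0.11, adjusted p = 0.0503 with limma) and RpL28 (0.01, adjusted p = 0.803 with limma). RpL41 passed in 9 and RpL7-like in 12 of the alternatives run.

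**Figure D3:**
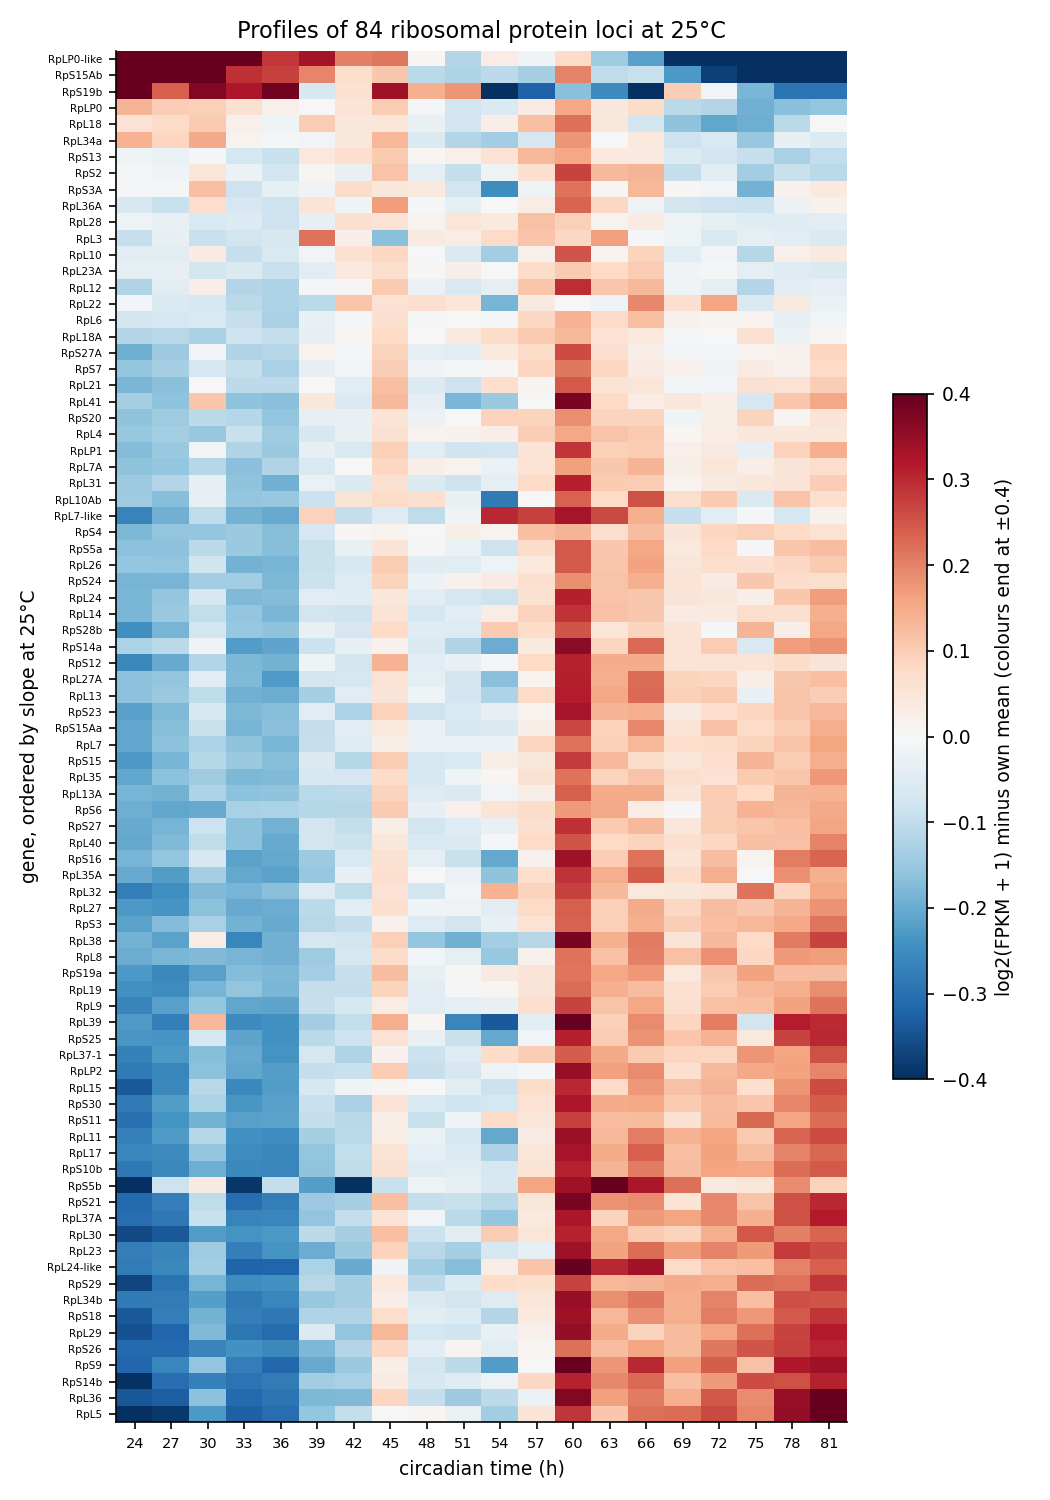
Profiles of 84 members at 25°C, as log2(FPKM + 1) minus each member's own mean (colour), against circadian time, ordered by slope from the steepest fall at the top (RpLP0-like) to the steepest rise at the bottom (RpL5). The CT60 column is red for nearly all rows, and most rows run from blue to red.

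The members moved up and down together between neighbouring libraries at 25°C. From CT57 to CT60 83 of 86 members went up, by a median of 0.22 on the log2 scale, and from CT60 to CT63 2 went up. From CT42 to CT45 82 went up and from CT45 to CT48 4 did. From CT36 to CT39 81 went up and from CT66 to CT69 7 did. Over all steps, between 41.4% and 55.5% of the other loci went up. At CT60 the median member stood 0.27 above its own mean, and 0.25 above it after rescaling the libraries by the median ratio of all loci.

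CT60 also stood apart in other loci of short span on the genome, and the part of this in the peak of the members was not tested. Among loci that are not members, the median deviation at CT60 was 0.16 for 411 loci spanning under 1000 bases, 0.10 for 1145 loci of 1000 to 2000 bases, 0.02 for 2513 loci of 2000 to 5000 bases and -0.06 for 924 loci of 20000 bases or more. At CT45, after another step upward in most members, the shortest and the longest of these classes stood at 0.06 and -0.06. The median member spanned 1590.5 bases, and members of 5000 to 20000 bases stood at 0.29 at CT60. Span is that of the locus on the genome, introns and merged genes included, and not the length of the transcript. The locus of RpL41, the smallest ribosomal protein, fell in the class of 20000 bases or more. Mitochondrial ribosomal proteins stood at 0.20 at CT60. Over the whole course at 25°C, the other loci under 1000 bases had a median change of -0.01 per 24 h and those of 20000 bases or more of 0.05.

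Pairs of members had a median Pearson's r of 0.83 over the 20 libraries at 25°C, and 88.5% of the 3655 pairs were positive. Pairs of other loci had a median r of 0.002, and 50.1% were positive. At 28°C the median over 3570 pairs of members was 0.59 and 92.4% were positive, against 0.05 and 57.3% for other loci. All points of such a correlation share the libraries and their scaling, and the values are a description. The profiles were not detrended, so that r and the principal component given next also carry the common rise. The first principal component of the member profiles held 79.9% of their variance at 25°C and 37.8% at 28°C. Correlated with the median of the other members, 59 members exceeded r = 0.9 at 25°C and 21 at 28°C.

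The least alike at 25°C were RpLP0-like (r = -0.72), RpS19b (-0.70), RpS15Ab (-0.65), RpLP0 (-0.28) and RpL18 (-0.12), which are 5 of the 6 that fell. RpL34a, the other that fell, had r = -0.10, and all other members were positive. As the profiles were not detrended, these r values in part restate that the 6 fell while most members rose. At 28°C RpS3A (-0.48), RpLP0-like (-0.28) and RpS15Ab (-0.14) were negative, followed by RpS5b (0.20) and RpL7-like (0.21). RpLP0-like was at 0 in 2 libraries at 28°C, RpS15Ab in 7 and RpS5b in 16, so that their profiles there rest on few reads.

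The coefficient of variation of a member over the 20 libraries had a median of 10.1% at 25°C, close to the 11.2% of the other expressed loci, and the highest library was 1.42 times the lowest at the median member. About its straight line, the median member had an SD of 0.086 on the log2 scale. RpL28 was the steadiest, with 7962 to 9142 FPKM and a coefficient of variation of 3.94%. At 28°C the median coefficient of variation was 25.3%, against 84.9% for the other loci, whose levels were far lower, the ratio of highest to lowest 2.63 and the SD about the line 0.26.

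At 28°C, where the libraries were shallower, the members also rose. The median log2 change per 24 h was 0.36 over 85 members and 0.12 over all expressed loci, and 45 members rose and none fell (limma, adjusted over all expressed loci), where 1.15% of the expressed loci rose and 0.122% fell. At an unadjusted p under 0.05, 68 members had a positive and 1 (RpS3A) a negative change, where 9.62% and 3.34% of the expressed loci did. Scaled by median of ratios 43 members and 81 of all loci rose, and without the 4 shallow libraries 48 and 86 did. Among loci at or above 0.9 FPKM in every library, 57 of 82 members rose, and 129 loci in all did. The number of loci tested with that filter is not given here, so the 1.15% is not its background. In the large subunit 23 of 51 rose and in the small subunit 22 of 34. The 72 mitochondrial ribosomal proteins had a median change of 0.36 at 28°C, about that of the members, and none of them passed in limma, with 11 positive changes under 0.05 before adjustment. Their median coefficient of variation there was 104% and their median level 18.7 FPKM. The change at 28°C also went with the span of a locus on the genome, which is not transcript length, and the part of this in the rise of the members was not tested. Among other loci, the median change was 0.24 per 24 h under 1000 bases and 0.03 at 20000 bases or more, and members had 0.35 under 1000 bases and 0.42 at 5000 to 20000 bases. Other loci over 1000 FPKM at 28°C had a median change of 0.66, and 11 of 59 rose, against 0.38 and 43 of 73 for members of that level.

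The median of the other loci at 28°C was lowest in the 4 shallow libraries, where many low loci were at 0. At CT24, CT27, CT48 and CT60 it stood at -0.42, -0.67, -0.53 and -0.66, and the member median stood at -0.49, -0.22, 0.34 and 0.21. From CT45 to CT48 75 of 85 members went up and 34.2% of the other loci did, and from CT48 to CT51 10 members went up. The highest library was CT81 for 34 members and the lowest was CT33 for 28, and 81 members were lowest before CT42.

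Among the largest rises at 28°C were those of RpL23, RpL27A, RpS15 and RpL34b. RpL23, which lies at the face of the large subunit that the assembly factor eIF6 covers, had 1709 FPKM at CT24, its lowest, a median of 3513 and 7312 at CT81, its highest. Its change was 0.60 ± 0.0895 (SE) on the log2 scale per 24 h, or 1.52-fold (adjusted p = 0.000718 with limma). RpL27A of the large subunit rose 1.49-fold per 24 h, from 2730 FPKM at CT24 to 8996 at CT81, its extremes. RpS15 and RpL34b changed by 0.58 and 0.56 on the log2 scale per 24 h.

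Some loci hold small nucleolar RNA genes besides the ribosomal protein, and at 28°C 3 of them had a library far above the others. RpL13A had 24163 FPKM at CT39 against a median of 3982, RpL28 had 13984 at CT69 against 2775, and RpL3 had 13742 at CT69 against 1389. RpL3, which lines the site of peptide bond formation, had the steepest fitted change of all members, 0.74 ± 0.224 (SE), and did not pass (adjusted p = 0.128 with limma). It did pass with Kendall's tau and among loci above the threshold in every library. In the polyA libraries at 25°C the same 3 loci stayed between 3612 and 10007 FPKM.

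**Figure D4:**
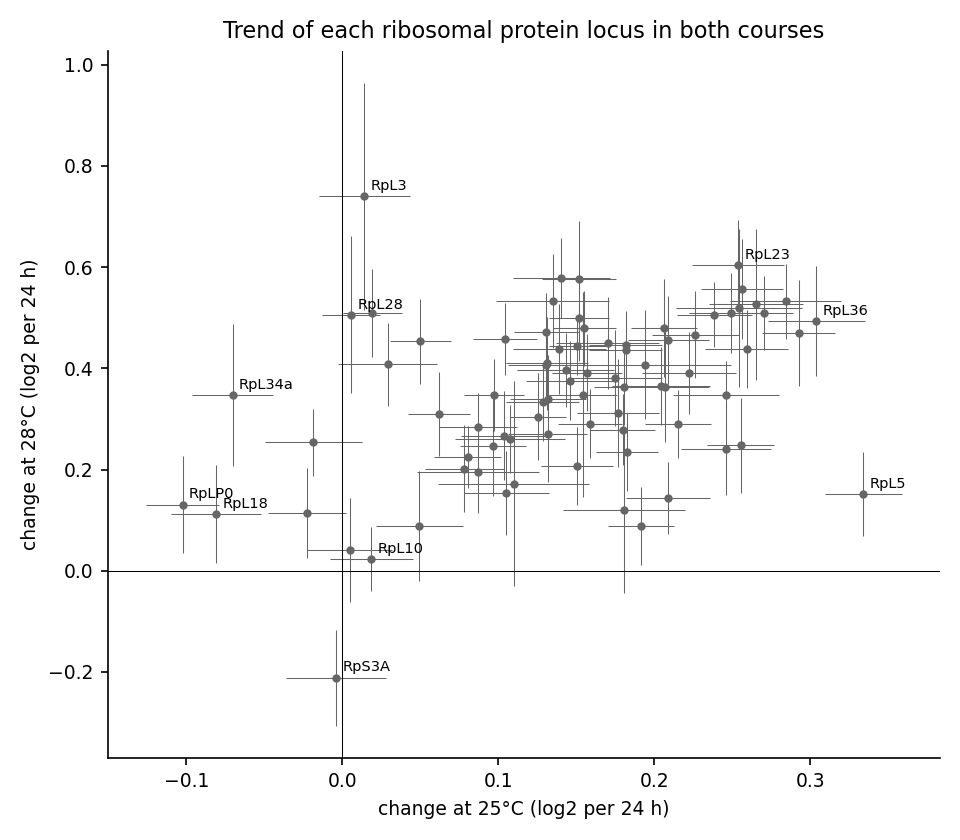
Change per 24 h on the log2 scale (with SE) at 25°C (horizontal) and 28°C (vertical) for 80 members whose SE at 28°C was under 0.4. Most members lie above 0 on both axes, RpLP0, RpL18 and RpL34a are farthest left of 0 at 25°C, and RpS3A is the lowest at 28°C.

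Most members had a positive change in each course. Of 85 members in both, 77 had a positive change in both and 43 rose in both. Of all expressed loci, 32.4% rose at 25°C and 1.15% at 28°C. The share that rose in both was not counted and can be at most 1.15% of the loci expressed at 28°C. The share of all loci with a positive change in both was not counted either. Taken alone, 77 members were positive at 25°C and 83 at 28°C, so the shared sign says little about single members. Of the members with a negative change at 25°C, only RpS15Ab and RpS3A also had one at 28°C. Spearman's rho between the changes was 0.42 over 85 members and 0.37 over the 79 with more than 1000 FPKM at 25°C, as a description across genes. RpL5, with the largest rise at 25°C, changed by 0.15 at 28°C (adjusted p = 0.449 with limma), with 2441 FPKM in its lowest library (CT36) and 5338 in its highest (CT54). RpL36 rose in both, by 0.49 on the log2 scale per 24 h at 28°C (adjusted p = 0.0172 with limma, and 0.0543 to 0.0782 with Kendall's tau or without CT24 or CT81). RpLP0 and RpL18 changed by 0.13 and 0.11 at 28°C, and neither passed. Whether a member's changes differed between the courses was not tested.

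To find members that departed from the group, each profile was also fitted after subtracting the median of the members. At 25°C 23 of 86 members rose and 34 fell relative to the median, where 11% of all expressed loci rose and 65.5% fell. The subtracted median itself rose in both courses, which lowers the change of every locus, while members lie around 0 by construction. The shares over all loci, here and at 28°C, are thus set in part by the subtraction and are no background rate for departure from the group. The 23 included RpL5 (0.17), RpL36 (0.14), RpS14b (0.13), RpS9 (0.12) and RpS26 (0.10 per 24 h). The largest relative falls were those of RpLP0-like (-0.72), RpS15Ab (-0.55), RpS19b (-0.50), RpLP0 (-0.27) and RpL18 (-0.25). The residual scatter in this fit was small, and RpL26 passed with a relative change of -0.03 per 24 h. Of the 23 that rose, 17 had a relative change above 0 at 28°C, and of 33 that fell and were measured there, 22 had one below 0.

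At 28°C 2 members rose and 2 fell relative to the median, where 0.217% of all expressed loci rose and 2.82% fell. RpL23 (0.26 ± 0.0634, adjusted p = 0.026 with limma) and RpL27A (0.24 ± 0.0535, adjusted p = 0.0166 with limma) rose. RpS3A, a protein of the small subunit encoded on chromosome 4 (85851 to 87833), fell by 0.55 ± 0.106 (SE; adjusted p = 0.00797 with limma). It had 1200 FPKM at CT24, 1209 at CT27, a median of 775 and 595 at CT60, so that it was high in the earliest libraries, where most members were low. Without subtraction its change was -0.21 (adjusted p = 0.341 with limma). At 25°C RpS3A changed by -0.17 relative to the median. RpL10, which joins the large subunit late in its assembly, fell by 0.32 relative to the median at 28°C and kept between 1551 and 2387 FPKM. The relative rise of RpL23 was lost without the shallow libraries and without CT24, CT33, CT78 or CT81 (adjusted p from 0.0549 to 0.0909 in limma), and that of RpL27A without CT24 (adjusted p = 0.0602 in limma).

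**Figure D5:**
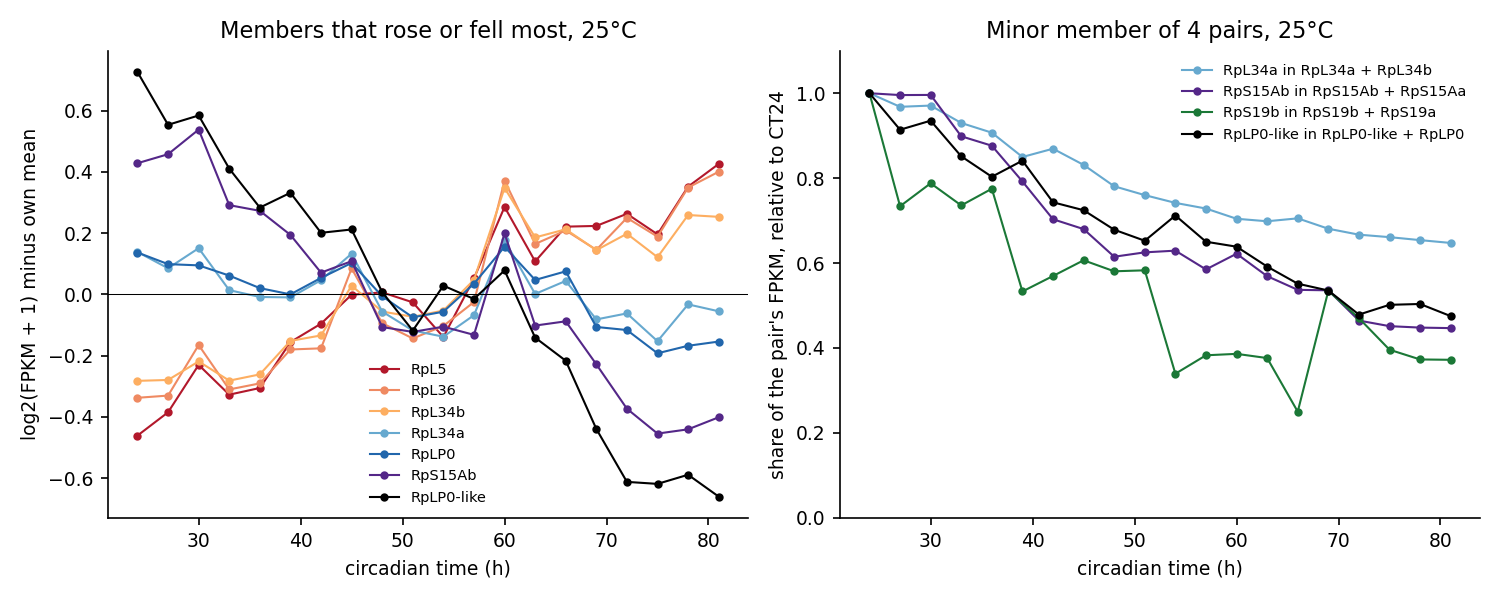
Left, 7 members at 25°C as log2(FPKM + 1) minus their own mean against circadian time, with RpL5, RpL36 and RpL34b going up and RpLP0-like, RpS15Ab, RpLP0 and RpL34a going down. Right, the share of the minor member in the FPKM of 4 pairs, relative to its share at CT24, which fell to 0.372 (RpS19b) to 0.647 (RpL34a) of its first value at CT81.

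The copies of duplicated genes did not all move alike at 25°C. RpL34a made up 17.3% of the FPKM of RpL34a and RpL34b together at CT24, its highest share, and 11.2% at CT81, its lowest. RpL34b rose by 0.26 on the log2 scale per 24 h, from 4624 FPKM at CT24 to 6703 at CT81, while RpL34a fell from 964 to 843 FPKM. RpS15Ab made up 3.43% of the RpS15A pair at CT24 and 1.53% at CT81, and RpS19b 0.273% and 0.102% of the RpS19 pair. RpLP0-like held 4.51% of the sum with RpLP0 at CT24 and 2.14% at CT81. RpS14a and RpS14b lie side by side on the X chromosome (7827775 to 7828710 and 7828931 to 7829825) and are near-identical, so that the split of reads between them is uncertain. RpS14a had 67.3% of their sum at CT24 and 61.0% at CT81. At 28°C the share of RpL34a ran from 6.11% (CT24) to 21.2% (CT33), with a median of 11.8% and no like course.

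The stalk proteins, which recruit the GTPases of translation, also differed among themselves at 25°C. RpLP1 changed by 0.10, from 8475 FPKM at CT24 to 10569 at CT81, and RpLP2 by 0.21, from 8203 to 11423 FPKM. Both rose, while RpLP0 fell. At 28°C RpLP1 changed by 0.27, RpLP2 by 0.36 and RpLP0 by 0.13 per 24 h, and none passed in limma, with RpLP1 and RpLP2 under 0.05 before adjustment.

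The 3 members made as fusions with ubiquitin or a ubiquitin-like protein all rose at 25°C. RpL40 changed by 0.16, RpS27A by 0.08 and RpS30 by 0.21 on the log2 scale per 24 h. At 28°C RpL40 (0.29) and RpS30 (0.46) rose and RpS27A (0.20, adjusted p = 0.31 with limma) did not pass. The rise of RpL40 at 28°C was lost without CT24, CT30, CT33, CT36, CT69, CT72, CT75 or CT81 (adjusted p from 0.0604 to 0.0900 in limma). The locus of RpS27A also holds the gene Ip259.

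The assembly factor relatives went different ways at 25°C. RpL24-like rose by 0.25 on the log2 scale per 24 h, with 377 FPKM at CT33 and 633 at CT60 as its extremes, and it kept between 9.04% and 11.5% of its sum with RpL24. RpL7-like (0.11) did not pass, and RpLP0-like fell. At 28°C none of the 3 passed in limma and RpL24-like was under 0.05 before adjustment, with changes of 0.52 (RpL24-like), 0.17 (RpL7-like) and 0.11 (RpLP0-like).

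Few members were called rhythmic in the main setting. JTK-Cycle was run on detrended profiles with periods of 21, 24 and 27 h. Its null distribution was exact for ranks without ties, whereas the references held ties, which makes the P-values conservative. JTK-Cycle called 6 of 86 members at 25°C, where 4.81% of all expressed loci were called. They included RpL27A (adjusted P-value 0.0115), RpL8 (0.0264), RpL17 (0.0343), and RpL11 and RpS10b (0.0442 each), and all 6 had a best period of 21 h. Of the 86 members 58 had their best period at 21 h. After a further Benjamini-Hochberg adjustment over all expressed loci, the smallest value of any locus was 0.600. No locus passed in this setting, member or not. When equal reference values were ranked in time order, 13 members were called, where 4.89% of loci were. Leaving out 1 library gave between 0 members (without CT54) and 23 (without CT30), so that the count rested on single libraries. It was 11 without CT57, 3 without CT33, CT36, CT51 or CT75 each, and 1 without CT66. Over all expressed loci the count ran from 225 (without CT63) to 604 (without CT33). The share of all loci without CT30 is not given here, so the 23 members have no background beside them.

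At 28°C JTK-Cycle called no member, where 1.86% of the expressed loci were called. The smallest adjusted P-value was 0.0908, for RpL22 and RpL24. Cosinor regression with a 24-h period and no adjustment called 6 of 85 members at 28°C, where 6.53% of the expressed loci were called, and 4 of 86 at 25°C, where 12.4% were. RpL27A, RpL8, RpL17, RpL11 and RpS10b, called by JTK-Cycle at 25°C, did not pass with cosinor (p from 0.0680 to 0.318). Their best period with JTK-Cycle was 21 h and cosinor fitted 24 h only, so the 2 results are not like for like.

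Among 13 expressed partners of the ribosome (of 15 listed), 7 rose and 2 fell at 25°C, where 32.4% of the expressed loci rose and 35.6% fell. The proteins of the ribosome itself with other names, sta of the small subunit and Rack1, rose by 0.20 and 0.15 on the log2 scale per 24 h. Tctp, a growth-related protein, had the largest rise (0.23, from 2661 to 4096 FPKM as lowest and highest). eEF1delta, an exchange factor of translation elongation, fell by 0.59, with 234 and 583 FPKM as its extremes, and eIF6, which keeps the subunits apart, by 0.37. At 28°C sta (0.41), Rack1 (0.42), bic (0.46) and Tctp (0.28) rose, and none fell in limma, with eEF1delta (-0.44) under 0.05 before adjustment.

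Of 13 expressed genes listed as regulators of ribosomal protein genes or their translation, 6 rose and 3 fell at 25°C, not far from the 32.4% and 35.6% of all expressed loci. Thor, the repressor 4E-BP of cap-dependent translation, had the largest rise, by 1.15 ± 0.126 (SE) on the log2 scale per 24 h, from 302 FPKM in its lowest library to 3505 in its highest. Max, a partner of Myc, fell by 0.15. Myc itself stood between 18.9 and 30.6 FPKM and changed by 0.11 (adjusted p = 0.0507 with limma). At 28°C none of the 13 passed in limma and only Myc (-0.54) was under 0.05 before adjustment. Thor changed by 0.19 there, with 147 to 540 FPKM.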

How the data were processed

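Per the labels and methods, reads were mapped to dm3 by TopHat and merged into loci on RefSeq genes by Cuffmerge, and the authors deposited FPKM values that Cuffnorm had scaled within each time course. Alignments at 28°C were first thinned to a shared maximum. Loci can hold several genes, and loci that share reads may split them. The labels and the methods name different library kits. Symbols from RefSeq accessions matched 98.3% of loci.

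Members and gene lists were chosen with earlier results of these data known. Named were, per course, the 5 members with the highest and the 5 with the lowest mean, the 5 steepest called in each direction (also relative to the member median), those called rhythmic, the 5 least correlated, and the stalk, ubiquitin, -like and duplicated members, with the partner and regulator genes of largest slope; 2 members are counted but not reported by name or drawn here. Others, such as RpL3, RpL13A, RpL26, RpL28 and RpS7, were chosen after their values were seen. Of 15 partner symbols 14 had a locus, and of 15 regulator symbols 13 did, because 1 is listed under an older and a current symbol and 1 had no match.

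Slopes came from limma 3.58.1 in R 4.3.3 on log2(FPKM + 1), which understates changes of low loci, for loci with a mean of at least 0.9 FPKM, with Benjamini-Hochberg adjustment at 0.05. Tests rest on 20 libraries with 1 per time point. JTK-Cycle was rewritten in Python 3.11.15 (24 references). The limma and Kendall's tau trends and JTK-Cycle were tested on simulated data with independent scatter per locus, unlike the members, which move together. Cosinor, the fit relative to the member median and median of ratios were not tested in this way. The reads of each single library are not given in the sources used here. Of low values, 85.1% at 25°C and 53.6% at 28°C lay within 0.1 of a whole step, where chance gives 20%, so no reads were recovered. Alternatives were a pseudocount of 0.1, other filters, median of ratios, Kendall's tau, cosinor, no detrending and leaving out each library.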

Additional observations from a re-analysis of the deposited data

How the results depend on the processing

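At 25°C the trend of the members kept its counts under every alternative run: between 67 and 70 rose and 5 to 7 fell, including leaving out each library (67 to 70 rose, 5 to 6 fell). At 28°C leaving out 1 library gave 37 (without CT81) to 51 (without CT48) members that rose and 0 that fell. Leaving out libraries moved the loci that rose from 2339 to 2500 and those that fell from 2561 to 2730 at 25°C, and from 70 to 101 and 2 to 16 at 28°C. With 0.9 FPKM required in every library, 129 loci rose and 44 fell at 28°C, and with Kendall's tau 21 fell, against 85 and 9.

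Relative to the member median, 23 to 24 members rose and 31 to 36 fell at 25°C without single libraries (all loci: 733 to 897 and 4798 to 4980), and 10286 loci fell with no filter, against 4931. At 28°C 0 to 3 members rose and 2 to 4 fell without single libraries (all loci: 9 to 20 and 101 to 361). There 6 rose and 9 fell with the filter on every library, 8 and 8 with Kendall's tau, 4 fell with no filter, and 1 (RpL27A) rose and 4 (RpS3A, RpL15, RpL10, RpS7) fell without the shallow libraries, an alternative chosen after seeing the data. The loci that fell were then 573, 1120, 663 and 651, against 208. The cause was not tested.

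For rhythm at 25°C, leaving out 1 library gave 0 (CT54) to 23 (CT30) members and 225 (CT63) to 604 (CT33) loci. In all such ranges, the extremes for members and for all loci need not come from the same library. Without detrending 1 member (RpS3A) and 120 loci were called, with tied references in time order 13 members, and with cosinor 935 loci. At 28°C leaving out 1 library gave 0 to 2 members and 115 to 182 loci. There 1 member was called without detrending (RpL22) and 1 on log2 values (RpL34b), 6 with cosinor (481 loci), and 76 loci with the filter on every library. No paired analysis was possible because each time point has 1 library, and the numbers of the libraries are only time points. With 1 library a time point, a library that stands apart cannot be told from a change at that time.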
